A study of Mus musculus with 14 samples.

Results

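The genes described here encode the nuclear subunits of respiratory complexes II, III and IV and of ATP synthase (complex V), with cytochrome c. The members were 39 of the 23337 gene symbols counted in each library, found by symbol in the count tables: 4 for complex II, 9 for complex III, 1 for cytochrome c, 10 for complex IV and 15 for complex V. RNA from microdissected brain regions of C57Bl/6 mice aged 6 months was sequenced in 14 libraries. Striatum was taken from Thap1 conditional knockout (Thap1 cKO) mice (3 libraries) and wildtype (WT) mice (3 libraries), and cerebellum from Thap1 cKO mice (4 libraries) and WT mice (4 libraries), the WT mice being littermates. THAP1, which binds DNA through a zinc finger, is the transcription factor mutated in a form of inherited dystonia. Neither the driver of the conditional deletion nor the part of Thap1 deleted is given in the labels. Nothing says whether each library came from a separate animal, so the p-values below cover only the variation among these samples, which may be technical.

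Complexes III and IV pass electrons from ubiquinol through cytochrome c to oxygen and pump protons across the inner mitochondrial membrane. Complex II feeds electrons from succinate into the same chain, and ATP synthase makes ATP from the returning protons. Neurons depend on this pathway for most of their ATP, and its nuclear genes are known targets of shared regulators, among them NRF1, the ETS factor GABP and the estrogen-related receptors. A few subunits of complexes III, IV and V are encoded in mitochondrial DNA and were not analysed here.

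Libraries held 12595941 to 14258141 counts in striatum and 19458954 to 28099205 in cerebellum. The summed level of striatal projection neuron markers separated the dissections, at 9920 to 12200 CPM (counts scaled to a common library size) in striatum and 391 to 466 CPM in cerebellum. Thap1 itself averaged 5.56 ± 1.96 CPM in cKO striatum and 14.3 ± 1.07 CPM in WT striatum (SD, n = 3 each), with no overlap between the genotypes (log2 fold change −1.36, SE 0.231, edgeR adjusted p = 0.0562). In cerebellum it averaged 7.36 ± 0.391 CPM in cKO and 9.31 ± 1.25 CPM in WT (SD, n = 4 each; log2 fold change −0.34, SE 0.10, edgeR adjusted p = 0.0488). Thap1 fell past the threshold in cerebellum and missed it in striatum. One striatal library, WT replicate 1, stood apart from the others. Its chi-square per degree of freedom against the other WT striatal libraries was 27.2 and 26.9, against 6.52 between those 2. By counts of Xist and the Y-linked Ddx3y, each striatal group had 1 male (replicate 1 in both genotypes) and 2 females, and each cerebellar group was split evenly by sex. Results for the subunits in striatum are therefore given with and without WT replicate 1. Leaving it out removes the only male of the WT striatal group, while the cKO striatal group keeps its own. In the fits without it, the interaction included, genotype and sex cannot be fully told apart in striatum. The same holds for tissue and sex in the comparison of WT tissues.

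That library was low for nearly all respiratory subunits. The 39 members took 0.649, 0.691 and 0.629% of the counts in the cKO striatal libraries, against 0.377, 0.61 and 0.603% in WT replicates 1, 2 and 3. In cerebellum the share was 0.745, 0.754, 0.754 and 0.773% in cKO and 0.708, 0.72, 0.728 and 0.72% in WT. The genotypes' shares did not overlap in either tissue, and in striatum the gap to the other 2 WT libraries was much smaller than the gap to WT replicate 1. WT replicate 1 was the lowest of the 6 striatal libraries for 36 of the 39 members, against 33.8% of all genes tested in striatum. The exceptions were Cox7c, Atp5g2 and Atp5l, which are listed at under 2 CPM in every striatal library.

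**Figure D1:**
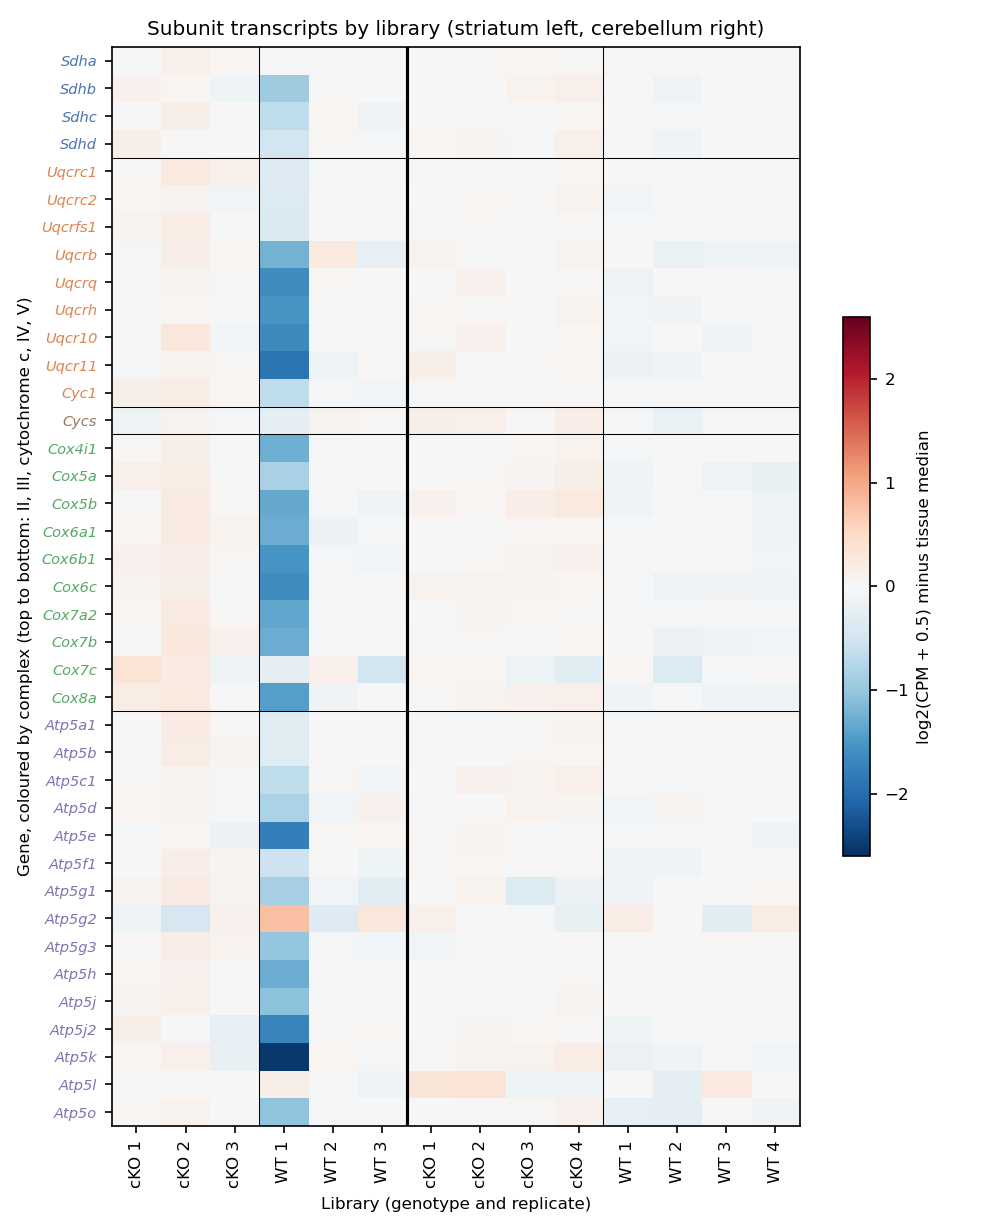
Levels of the 39 subunit genes (down the page, coloured by complex) in the 14 libraries (across, cKO left of WT in each tissue), as log2(CPM + 0.5) minus the gene's median in that tissue. Striatal WT replicate 1 is the blue column, lowest for 36 of 39 genes, while the cerebellar columns differ little.

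The loss in WT replicate 1 went with the length of the transcript. Sdha, the flavoprotein of succinate dehydrogenase, has a principal transcript of 2900 bp and stood in WT replicate 1 at 97.9% of the mean of WT replicates 2 and 3. Atp5a1 (2471 bp) and Atp5b (1916 bp), the alpha and beta subunits that form the catalytic head of ATP synthase, stood at 82.5 and 80.1% of that mean. The 3 members with longer transcripts than Sdha were lower than it, with Cycs (3123 bp) at 79.6%, Sdhc (3171 bp) at 64.2% and Atp5g1 (4660 bp) at 59.5%. At the short end, Atp5k (371 bp), the membrane-embedded subunit e of ATP synthase, stood at 17% of it, Uqcr11 (445 bp) at 26.9% and Atp5e (421 bp) at 27.8%. Over the 36 members at 5 CPM or more in WT replicates 2 and 3, the log2 ratio of WT replicate 1 to the other 2 followed log10 transcript length with Pearson's r = 0.84 and Spearman's rho = 0.88. The same ratio for the mean of the cKO libraries gave r = 0.19 and rho = 0.19. These are descriptions over genes read from the same libraries, with no test. Over all 39 members, which include the 3 nearly undetected genes, r was 0.52 and rho 0.60 for WT replicate 1.

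**Figure D2:**
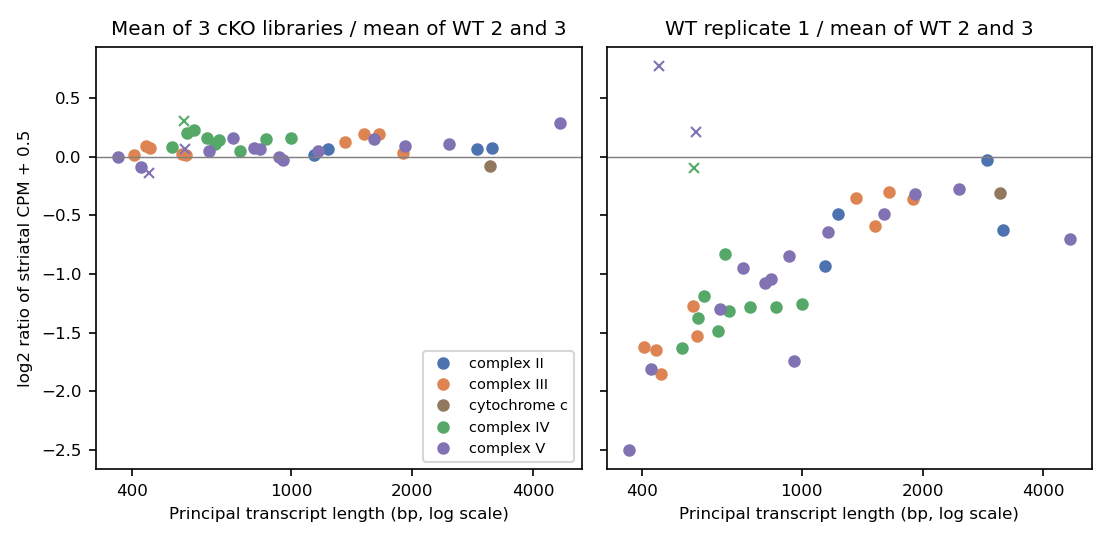
Log2 ratio of striatal levels to the mean of WT replicates 2 and 3 (vertical axis) against principal transcript length (log axis) for each subunit gene, for the mean of the 3 cKO libraries (left) and for WT replicate 1 (right); crosses mark the 3 genes under 5 CPM. The cKO ratios lie near 0 at every length, while the ratio for WT replicate 1 is lowest for the shortest transcripts (r = 0.84 over the 36 filled points).

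Among all genes the shorter classes were also lower in WT replicate 1, and in each length class the members' median lay below that of all genes in the class. Among genes with a transcript of up to 600 bp, the median log2 ratio of WT replicate 1 to the other 2 WT libraries was −1.58 over the 12 members tested and −0.98 over all 205 genes tested in that class. Between 601 and 1000 bp it was −1.28 over 11 members and −0.74 over 733 genes. Between 1001 and 2000 bp it was −0.49 over 10 members and −0.32 over 3150 genes, and between 2001 and 4000 bp −0.30 over 4 members and −0.01 over 5968 genes. Above 4000 bp it was −0.70 for the 1 member, Atp5g1, and 0.22 over 3877 genes. Subunit transcripts are short, with a median of 809 bp against 2832 bp over all genes tested in striatum. Each library's deviation in log2 level from the striatal mean was also set against log10 exon length. The slope was 0.683 in WT replicate 1 and between −0.182 and −0.106 in the other 5 striatal libraries. That mean includes WT replicate 1, so its positive slope makes those of the others negative and they show no length trend of their own. What made this library differ was not tested.

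With all 6 striatal libraries, none of the 38 members tested passed the threshold (edgeR quasi-likelihood test, Benjamini-Hochberg adjusted p under 0.05 over all genes), and 37 of them had a positive log2 fold change. Of all 14080 genes tested in striatum, 0.384% were called (0.0639% higher and 0.32% lower) and 50.6% had a positive fold change. Atp5l was too low to be tested. The members' median log2 fold change was 0.35 (quartiles 0.24 and 0.46), against 0 over all genes. At an unadjusted p under 0.05, 3 members were higher and none lower in edgeR, against 2.31 and 4.94% of all genes. DESeq2 and limma-voom with quality weights also called none. Of all 14080 genes DESeq2 called 24 higher and 129 lower, and limma-voom 33 higher and 153 lower. In the fit with all 14 libraries no member was called either.

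The complexes fell into an order in striatum that was also the order of their loss in WT replicate 1. These orders are not independent, since WT replicate 1 is part of the WT group in each fold change. The median log2 fold change was 0.46 for complex IV, 0.36 for complex III, 0.32 for complex V and 0.23 for complex II. The summed level of complex IV in WT replicate 1 was 40.9% of the mean of WT replicates 2 and 3, that of complex III 60.4%, of complex V 70.8% and of complex II 84%. Complex IV summed to 1470, 1600 and 1400 CPM in cKO striatum, against 553, 1340 and 1370 CPM in WT striatum. Complex II, whose 4 genes include the longer Sdha and Sdhc transcripts, summed to 732, 770 and 725 CPM in cKO and 600, 722 and 706 CPM in WT. For complex III the sums were 930, 1000 and 905 CPM in cKO and 536, 900 and 877 CPM in WT, and for complex V 3170, 3540 and 3210 CPM in cKO and 2200, 3130 and 3090 CPM in WT. In each complex the cKO libraries all lay above all WT libraries, and WT replicates 2 and 3 lay much closer to cKO than to WT replicate 1 in complexes III, IV and V.

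Without WT replicate 1, and so with no male in the WT group, the striatal differences shrank. The members' median log2 fold change was 0.08, with 34 positive and 4 negative (51.6% of all 14252 genes were positive). None was called, against 0.856% of all genes. At an unadjusted p under 0.05 in edgeR, 6 were higher and none lower (3.54 and 4.95% of all genes). DESeq2 was not run without that library. The medians by complex became 0.15 for complex IV, 0.08 for complex III, 0.06 for complex V and 0.07 for complex II. The cKO sums were then 110% of WT for complex IV, 106% for complexes III and V and 104% for complex II, against 137, 123, 118 and 110% with all WT libraries. Removing each library's trend with transcript length in place of leaving the library out gave a median of 0.20 over the members, and both together gave 0.08. Removing the trend with exon length, as planned, gave 0.24. With either trend removed no member was called, and 7 were higher and none lower at an unadjusted p under 0.05 in edgeR. Of all 14080 genes, 452 were then higher and 715 lower (transcript length), or 414 and 721 (exon length). In 13 of the 38 tested members, all 3 cKO libraries lay above WT replicates 2 and 3, as did 11.7% of all genes. The same 13 lay above all 3 WT libraries, since WT replicate 1 was lower still (6.85% of all genes), and no member lay below (8.2% of all genes).

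Uqcrc1, a core subunit of complex III, had the smallest p of its complex. It stood at 181, 210 and 193 CPM in cKO striatum and at 139, 172 and 170 CPM in WT striatum. All cKO libraries were above all WT libraries, and WT replicate 1 was the lowest (log2 fold change 0.28, SE 0.108, edgeR adjusted p = 0.615). Without WT replicate 1 its fold change was 0.19 (SE 0.0756, edgeR adjusted p = 0.476). Cyc1, the cytochrome c1 that hands electrons to cytochrome c, stood at 114, 118 and 106 CPM in cKO and 65.2, 100 and 97.4 CPM in WT, with log2 fold changes of 0.36 with all libraries and 0.19 without WT replicate 1. Neither gene passed over all genes in either fit, and both were among the 6 with an unadjusted p under 0.05 without WT replicate 1.

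Cox6a1, a regulatory subunit of cytochrome c oxidase, stood at 208, 236 and 214 CPM in cKO striatum and at 81.4, 181 and 193 CPM in WT striatum. Its log2 fold change was 0.53 (SE 0.265, edgeR adjusted p = 0.732) with all libraries and 0.23 (SE 0.0755, edgeR adjusted p = 0.317) without WT replicate 1. The cKO libraries lay above WT replicates 2 and 3 by a margin smaller than the gap of those 2 to WT replicate 1. Cox8a, a small membrane subunit of the same complex, stood at 245, 257 and 216 CPM in cKO and at 79.7, 202 and 213 CPM in WT, again with every cKO library above every WT library and WT replicate 1 far below the rest. Its fold change was 0.53 with all libraries and 0.21 without WT replicate 1. The 6 members with an unadjusted p under 0.05 without WT replicate 1 were Uqcrc1, Cyc1, Cox6a1, Cox6b1, Cox8a and Atp5g3, so 3 belonged to complex IV, 2 to complex III and 1 to complex V.

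Sdhc, a membrane anchor of complex II, had the smallest p of that complex and stood at 82.6, 90.4 and 81.1 CPM in cKO striatum and at 51.8, 84.2 and 77.1 CPM in WT striatum. WT replicate 2 lay above 2 of the cKO libraries, so that the genotypes overlapped, and the log2 fold change was 0.25 (SE 0.162, edgeR adjusted p = 0.778) with that library and 0.07 without it. Sdha was the most even member, at 441, 485 and 462 CPM in cKO and 434, 445 and 441 CPM in WT, with a fold change of 0.07 with or without WT replicate 1. Cytochrome c itself (Cycs), the mobile electron carrier, stood at 10.9, 12.7 and 11.6 CPM in cKO and 9.94, 12.7 and 12.3 CPM in WT. Its fold change was 0.01 with all libraries and −0.09 without WT replicate 1, and the genotypes overlapped.

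Oligodendrocyte markers moved with genotype in striatum. The 14 genes summed to 5080 to 6300 CPM in cKO and 7910 to 9700 CPM in WT, 4 of them were called lower by edgeR with all libraries, 7 without WT replicate 1 and 12 by DESeq2 with all libraries, and none was at 0 in any group. No gene of another marker list was called by edgeR with all libraries. Of 10 astrocyte markers DESeq2 called 2 higher and limma-voom 1, and edgeR called 1 higher without WT replicate 1. With all libraries, all 8 endothelial markers had negative log2 fold changes (median −0.32). The 6 choroid plexus markers tested (median 0.9) and 6 ependymal markers (0.35) were all positive. In bulk tissue fewer cells of a type and less RNA per cell cannot be told apart. The part of these differences in the subunits' levels was not tested.

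**Figure D3:**
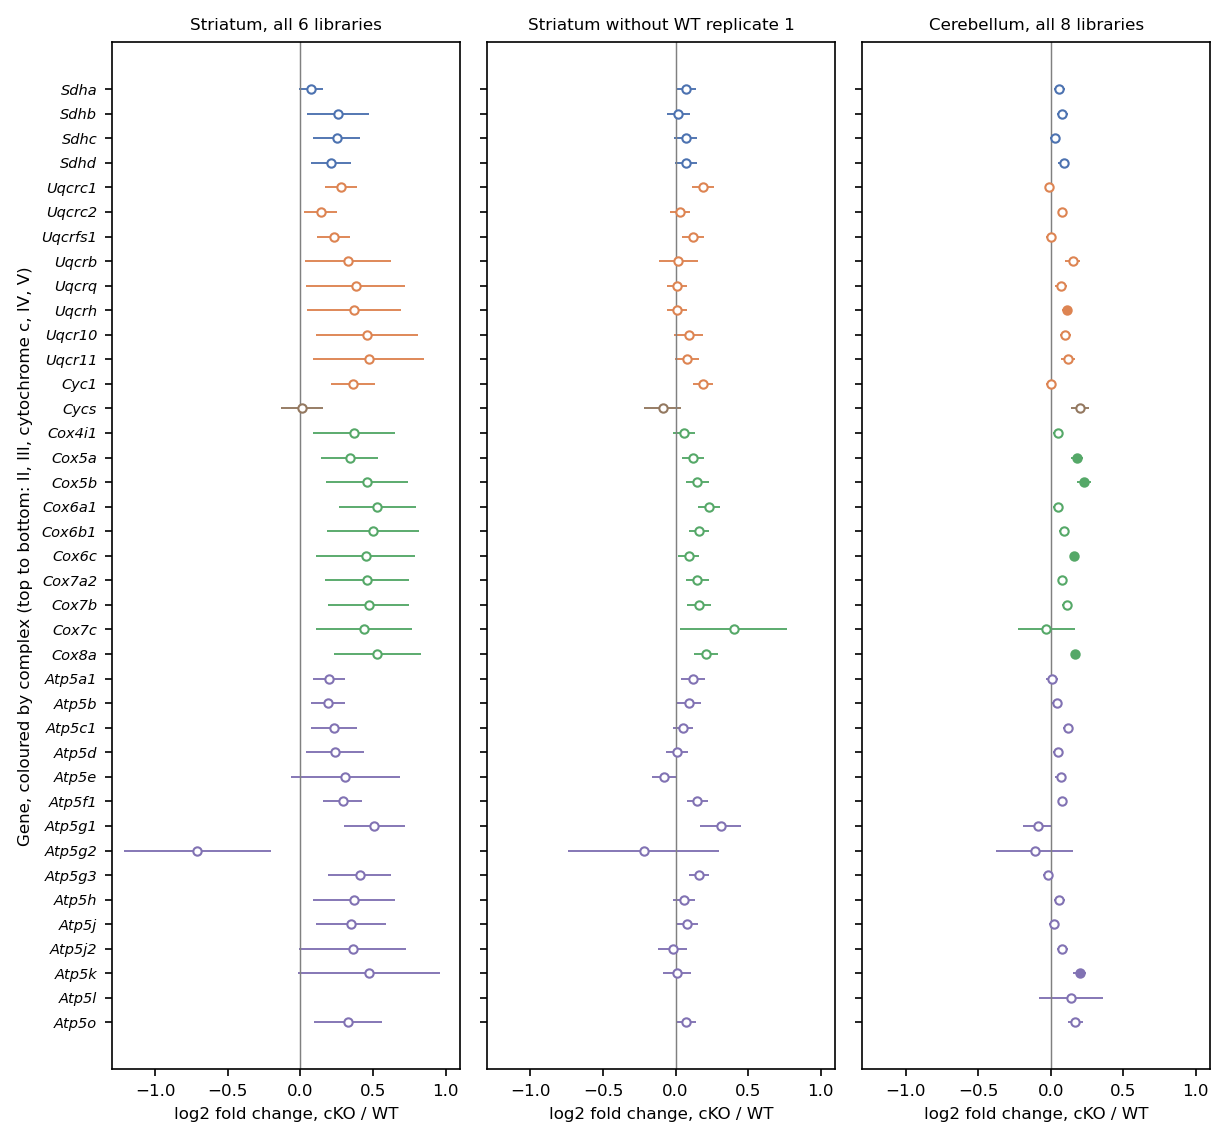
Log2 fold change (cKO over WT, horizontal axis) with its SE for each subunit gene, coloured by complex, in striatum with all 6 libraries (left), in striatum without WT replicate 1 (middle) and in cerebellum (right). Filled points passed an edgeR adjusted p under 0.05; the 6 filled points are all in cerebellum, and the striatal median is 0.35 with and 0.08 without WT replicate 1.

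In cerebellum, where replicates varied less, 6 of the 39 members rose in cKO and none fell (edgeR), against 7.59% of all 14775 tested genes called, 2.63% higher and 4.96% lower. The 6 were Cox5a, Cox5b, Cox6c and Cox8a of complex IV, Uqcrh of complex III and Atp5k of complex V. The rises were small, with fitted cKO levels between 108 and 117% of WT. The members' median log2 fold change was 0.08 (quartiles 0.03 and 0.12), against 0 over all genes, and 33 of the 39 were positive (51.6% of all genes). At an unadjusted p under 0.05, 18 were higher and none lower, against 9.92 and 12.6% of all genes. All 4 cKO libraries lay above all 4 WT libraries in 13 members and below them in none, against 6.38 and 7.96% of all genes.

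Complex IV held 4 of the 6 calls in edgeR and 4 of 8 in DESeq2, which called 3 in complex V and 1 in complex III. Of all 14775 genes DESeq2 called 438 higher and 814 lower. Of its 10 members 4 rose, with a median log2 fold change of 0.10, and 7 had an unadjusted p under 0.05. In complex III 1 of 9 rose and the median was 0.08, in complex V 1 of 15 with a median of 0.06, and in complex II none of 4 in edgeR, DESeq2 or limma-voom, with a median of 0.07 and 1 member with an unadjusted p under 0.05 in edgeR. Complex IV summed to 1470, 1480, 1520 and 1540 CPM in cKO cerebellum and 1390, 1410, 1400 and 1370 CPM in WT cerebellum, with no overlap (1500 ± 35.5 and 1400 ± 17.5 CPM, SD, n = 4 each). Complex II summed to 860, 866, 874 and 889 CPM in cKO and 828, 834, 847 and 831 CPM in WT, also without overlap. The sums of complexes III and V overlapped between genotypes, at 1160 to 1220 CPM in cKO and 1120 to 1170 CPM in WT for complex III, and at 3830 to 4070 CPM in cKO and 3760 to 3930 CPM in WT for complex V. Relative to the WT mean, the cKO sum was 108% for complex IV, 104% for complex II and 103% for complexes III and V. Whether the complexes differ in their response was not tested.

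Cox5b, a peripheral subunit of cytochrome c oxidase on the matrix side (chromosome 1, 36691449 to 36693681, plus strand), stood at 64.2, 61.5, 67.3 and 70.7 CPM in cKO cerebellum and at 55.5, 57.8, 57.3 and 54.3 CPM in WT cerebellum. Every cKO library was above every WT library (log2 fold change 0.23, SE 0.0468, edgeR adjusted p = 0.00562). Cox5a, its partner on the matrix side (chromosome 9, 57521274 to 57532426, plus strand), stood at 134, 136, 140 and 149 CPM in cKO and at 124, 133, 122 and 117 CPM in WT. The groups were close, with WT replicate 2 just under the lowest cKO library (fold change 0.18, SE 0.0421, edgeR adjusted p = 0.0159; 0.0564 without cKO replicate 4).

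Cox6c, a small membrane subunit (chromosome 15, 35925886 to 35938246, minus strand), stood at 129, 128, 127 and 126 CPM in cKO and at 116, 111, 113 and 114 CPM in WT. It was the most even of the 6 and did not overlap (log2 fold change 0.16, SE 0.0303, edgeR adjusted p = 0.00294). Its exons overlap those of Vps13b on the other strand. The strand setting of the counting is not given, so reads of the 2 genes cannot be told apart there. Exons of Cox5a likewise overlap those of Gm26631 on the other strand, over 269 bp. Gm26631 was not counted, and whether its reads were given to Cox5a is not known. Cox8a (chromosome 19, 7215153 to 7217616, minus strand) stood at 223, 229, 237 and 238 CPM in cKO and at 204, 213, 205 and 202 CPM in WT. The genotypes did not overlap (fold change 0.17, SE 0.0331, edgeR adjusted p = 0.00384).

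Atp5k (chromosome 5, 108433244 to 108434448, minus strand) stood at 66.5, 69.8, 69.9 and 74.6 CPM in cKO cerebellum and at 58.6, 60.3, 63.8 and 61.7 CPM in WT cerebellum. There was no overlap (log2 fold change 0.20, SE 0.0443, edgeR adjusted p = 0.00954). Uqcrh, the hinge protein that helps cytochrome c1 meet cytochrome c (chromosome 4, 116066965 to 116075071, minus strand), stood at 156, 155, 153 and 160 CPM in cKO and at 144, 142, 149 and 146 CPM in WT. The groups did not overlap, and the fold change was the smallest of the 6 (0.11, SE 0.0301, edgeR adjusted p = 0.0421). The call of Uqcrh is the least secure, since it was made in 3 of the 17 other settings tried. Cox5b, Cox6c and Cox8a were called in 16 of the 17 and Cox5a and Atp5k in 15. The setting in which none of the 6 was called fitted all 14 libraries together, WT replicate 1 included. When that fit left out striatal WT replicate 1, 4 members were called, all of complex IV, with Atp5k at an edgeR adjusted p of 0.0574 and Uqcrh at 0.11.

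**Figure D4:**
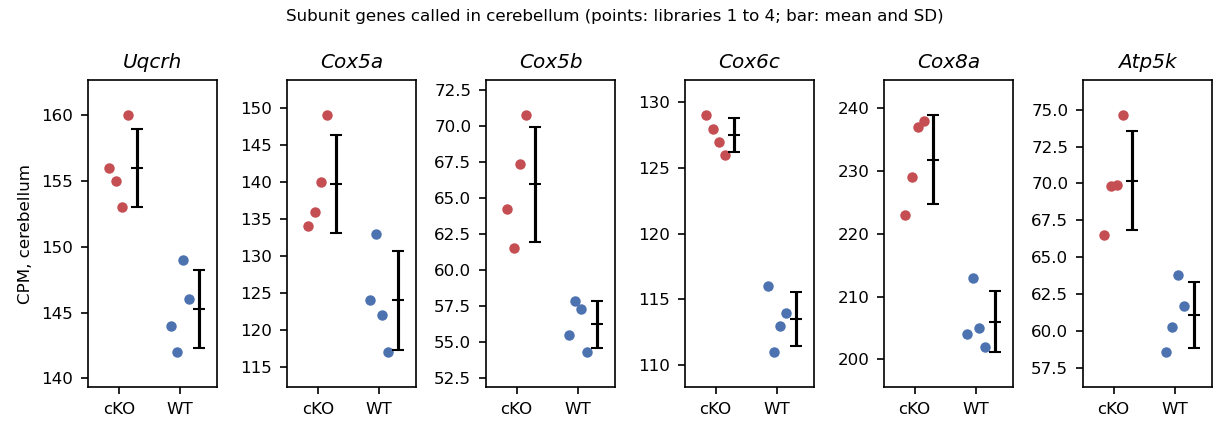
Levels (CPM, vertical axis, not starting at 0) of the 6 subunit genes called in cerebellum, with one point per library, cKO left of WT, and the mean and SD beside them (n = 4 each). In each panel the 4 cKO points lie above the 4 WT points.

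The promoters of the cerebellar genes that rose were read for motifs of known regulators. Windows of RefSeq (GRCm38.p6) from 250 bases before to 50 after the start were found for 31 of the 39 members, and were searched on both strands. The THAP1 motif TNNGGGCA was in 6 of the 31 member windows (19.4%) and in 14.2% of the 10423 windows of genes tested in cerebellum. The palindromic NRF1 motif was in 4 member windows (12.9%, against 1.95%), the ETS motif CCGGAAG bound by GABP in 11 (35.5%, against 16.2%), the estrogen-related receptor motif TNAAGGTCA in 2 (6.45%, against 0.816%) and the YY1 motif ANATGGCG in 4 (12.9%, against 6.5%). Of the 6 genes that rose, 5 had a window. The THAP1 motif was in those of Uqcrh and Cox5b, the NRF1 motif in that of Atp5k, and the ETS motif in those of Uqcrh, Cox8a and Atp5k, while none of these motifs was found in the window of Cox5a. The stretch before the start is shown for Uqcrh, which holds both a THAP1 and an ETS motif (chr4:116075072-116075320, minus strand), and a site for Cox5b (THAP1, chr1:36691465-36691494, plus strand), Cox8a (ETS, chr19:7217603-7217632, minus strand) and Atp5k (NRF1, chr5:108434430-108434459, minus strand), each 5′ to 3′ on the strand of the gene with the motif in capitals.
Uqcrh: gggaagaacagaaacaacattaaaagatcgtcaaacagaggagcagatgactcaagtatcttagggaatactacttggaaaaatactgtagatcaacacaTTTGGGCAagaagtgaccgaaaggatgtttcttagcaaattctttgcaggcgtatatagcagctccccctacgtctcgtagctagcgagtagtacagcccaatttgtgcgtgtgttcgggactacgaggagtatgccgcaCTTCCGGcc
Cox5b: gcttcggctggTCGGGGCAggaagcggaag
Cox8a: tttccgaaataCTTCCGGctcgggcgtccg
Atp5k: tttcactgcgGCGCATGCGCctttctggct
A match of letters is a description and says nothing of whether a factor binds there. The ETS motif reads CTTCCGG where it lies on the other strand.

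Of the remaining 33 subunits, a few came near the threshold. Cycs stood at 19.3, 19, 17.6 and 19.5 CPM in cKO cerebellum and 17, 15.2, 16.7 and 16.7 CPM in WT cerebellum, with no overlap (log2 fold change 0.20, SE 0.0635, edgeR adjusted p = 0.0694). Atp5c1, the rotating gamma subunit of ATP synthase, had a fold change of 0.12 (edgeR adjusted p = 0.0535), Atp5o, the stalk subunit that confers oligomycin sensitivity, 0.17 (0.0608) and Cox7b 0.11 (0.0687). In complex II the smallest p belonged to Sdhd, a membrane anchor, at 120, 121, 113 and 126 CPM in cKO and 112, 109, 117 and 114 CPM in WT; the groups overlapped (fold change 0.09, SE 0.037, edgeR adjusted p = 0.172). Others differed little or not detectably between genotypes. The core proteins of complex III, Uqcrc1 and Uqcrc2, had fold changes of −0.01 and 0.08 (edgeR adjusted p = 0.839 and 0.141), and Uqcrc2 did not overlap, at 247, 256, 252 and 263 CPM in cKO and 233, 238, 246 and 245 CPM in WT. Cyc1 and Uqcrfs1, the Rieske iron-sulfur protein, had 0.00 each, Cox4i1 0.05, Atp5a1 0.01 and Atp5b 0.04.

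Subunit c forms the proton-driven ring of ATP synthase, and 3 genes encode the same mature protein. Atp5g3 carried nearly all of the counts, at 221, 231, 237 and 236 CPM in cKO cerebellum and 233, 230, 239 and 233 CPM in WT cerebellum. It overlapped between genotypes (log2 fold change −0.02, SE 0.0324, edgeR adjusted p = 0.835). Atp5g1 stood at 9.77, 10.4, 7.5 and 8.73 CPM in cKO and 9.05, 9.64, 9.97 and 10 CPM in WT (fold change −0.09, edgeR adjusted p = 0.644), and Atp5g2 was under 1 CPM in every cerebellar library. Atp5g1 and Atp5g2 have near-identical copies elsewhere in the genome, and Atp5g3 has none. How reads that match several places were counted is not given, so the share of each of these genes is uncertain. In striatum Atp5g3 stood at 196, 215 and 203 CPM in cKO and 94.8, 186 and 181 CPM in WT, with a fold change of 0.41 with all libraries and 0.16 without WT replicate 1. Atp5g1 had the smallest p of complex V there, at 10.4, 11.4 and 10.3 CPM in cKO and 5.13, 9.34 and 7.9 CPM in WT, without overlap (fold change 0.51, SE 0.211, edgeR adjusted p = 0.651; 0.31 without WT replicate 1). Atp5g2 was the one negative member in striatum with all libraries, at −0.71 (SE 0.507), on levels of 0.613, 0.379 and 0.785 CPM in cKO and 1.55, 0.445 and 0.958 CPM in WT, which overlapped.

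Some other genes of the pathway were also called in cerebellum. Among 35 complex I subunits tested, edgeR called 1 higher, Ndufb4 (log2 fold change 0.45, SE 0.106, edgeR adjusted p = 0.0137), and 1 lower, and DESeq2 called 2 higher and 1 lower. The complex I median was 0.06, with 30 of 35 positive. Of 11 other subunits and tissue isoforms of complexes II to V tested, 2 rose, Ndufa4, a subunit of cytochrome c oxidase, by 0.11 and 2010107E04Rik, a small proteolipid of ATP synthase, by 0.17. The median of these 11 was −0.02, with 5 positive and 6 negative. Of 13 tricarboxylic acid cycle enzymes, Idh3a, the catalytic subunit of the NAD-dependent isocitrate dehydrogenase, rose by 0.12. None of 22 assembly factors and none of 12 regulators of mitochondrial biogenesis was called by edgeR, DESeq2 or limma-voom. At an unadjusted p under 0.05 in edgeR, 1 assembly factor was higher and 2 regulators were lower. In striatum no gene of these 5 lists was called by any of the 3 tools with all libraries. The complex I median was 0.34 in edgeR, with 34 of 35 subunits positive and 2 higher at an unadjusted p under 0.05. Without WT replicate 1 no gene of the 5 lists was called by edgeR, and the complex I median was 0.07, with 26 of 35 positive, 3 higher and 1 lower at an unadjusted p under 0.05.

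Some markers of cell types moved with genotype in cerebellum beside the subunits. Oligodendrocyte markers summed to 5090 to 5650 CPM in cKO and 5780 to 6360 CPM in WT, with 7 of 14 called lower. Purkinje cell markers summed to 13600 to 14700 CPM in cKO and 13000 to 13400 CPM in WT, with 1 of 10 called higher. In striatum that list still summed to 3450 to 3820 CPM in cKO and 3530 to 3910 CPM in WT. The list is thus not particular to cerebellum. Granule cell markers summed to 6430 to 6780 CPM in cKO and 6690 to 7610 CPM in WT, with 2 of 10 called lower by edgeR and 4 by DESeq2. At an unadjusted p under 0.05 in edgeR, 8 of them were lower and none higher. Of 10 astrocyte markers 3 were called higher and 2 lower, on sums of 4780 to 5290 CPM in cKO and 4810 to 5080 CPM in WT. Microglia markers summed to 225 to 242 CPM in cKO and 211 to 233 CPM in WT. Of these 10 markers edgeR and DESeq2 called none and limma-voom 1 higher. At an unadjusted p under 0.05 in edgeR, 2 of them were higher and none lower. Ependymal markers summed to 32.7 to 39.5 CPM in cKO and 22.2 to 31.8 CPM in WT without overlap, with none of 6 called by edgeR or DESeq2 and 3 higher at an unadjusted p under 0.05 in edgeR. Choroid plexus markers, from an epithelium beside the cerebellum, summed to 756 to 3650 CPM in cKO and 42.5 to 2240 CPM in WT, with none of 8 called by edgeR or DESeq2 and none at an unadjusted p under 0.05 in edgeR. None of these markers was at 0 in all libraries of a cerebellar group. Their part in the subunits' rises was not tested.

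The difference between the tissues was tested directly. No member passed in the interaction of genotype and tissue (edgeR; 0.39% of all 15401 genes were called), and DESeq2 called none, with 6 members and 885 of all 15401 genes lower at an unadjusted p under 0.05. With all libraries the cerebellar minus striatal difference was negative in 36 of 39 members, with a median of −0.27, while 46.8% of all genes were positive. In edgeR 4 members were lower and none higher at an unadjusted p under 0.05, against 5.79 and 5.86% of all genes. Without striatal WT replicate 1 the median was 0.00, with 20 positive and 19 negative, none called (0.694% of all genes) and, at an unadjusted p under 0.05, 1 higher and 5 lower, against 5.65 and 6.51% of all genes. Those 5 were Uqcrc1, Cyc1, Cox6a1, Atp5g1 and Atp5g3, which had higher fold changes in striatum than in cerebellum. Uqcrc1, for one, had 0.19 in striatum without WT replicate 1 and −0.01 in cerebellum (difference −0.21, SE 0.069, edgeR adjusted p = 0.196). The 1 member on the other side was Cycs (difference 0.28, SE 0.122, edgeR adjusted p = 0.357).

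Levels in WT striatum were also compared with those in WT cerebellum, and the counts of members called depended on the same library. With all WT libraries, 12 of 39 members were lower in striatum than in cerebellum and none higher, against 32.7 and 31.5% of all 15031 genes, with a median log2 ratio of striatum to cerebellum of −0.31 (48.2% of all genes had a positive ratio). None was higher at an unadjusted p under 0.05 in edgeR, and DESeq2 called 15 lower and none higher, against 4809 lower and 4802 higher of all 15031 genes. Left without cerebellar WT replicate 3 or 4 the same fit called 6 and 7 lower. Without striatal WT replicate 1, 19 members were lower and 9 higher in striatum, against 36.4 and 34.7% of all genes (71.2% in either direction), with a median of −0.09. In that fit complex V was lower in 9 of 15 members and higher in none, while complex IV was higher in 5 of 10 and lower in 1, Cox7a2 (log2 ratio −0.44, SE 0.0476); the difference between these complexes was not tested. Complex III had 6 members lower and 3 higher, and complex II 2 lower and 1 higher. Cyc1 had the lowest ratio among the members above 5 CPM (−0.73, SE 0.0495, edgeR adjusted p = 6.11e-08), and Uqcrb (0.55, SE 0.116), Uqcr11 (0.50, SE 0.0678), Cox5b (0.47, SE 0.0539) and Cox6a1 (0.40, SE 0.0516) the highest.

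Within a complex, levels per kilobase of transcript were uneven although the subunits are assembled in fixed ratios. In WT cerebellum the highest of each complex were Sdha at 167, Uqcrh at 254, Cox4i1, the nuclear subunit that binds the catalytic core, at 479 and Atp5b at 713 CPM per kb. Cox4i1 stood at 381, 372, 389 and 399 CPM in cKO cerebellum and 364, 378, 373 and 375 CPM in WT cerebellum, and Atp5b at 1420, 1470, 1480 and 1500 CPM in cKO and 1400, 1420, 1470 and 1430 CPM in WT. Both overlapped between genotypes. Cox7c, a subunit present once per cytochrome c oxidase, stood at 2.63 CPM per kb, Atp5l at 2.24 and Atp5g2 at 1.64 in WT cerebellum. These 3 genes have near-identical copies elsewhere in the genome (at least 95% identity over at least 200 bp), Atp5l having 9. Of all these copies only that of Cox7c, Gm10012, was counted, at 0 to 0.235 CPM. The 14 members with such a copy had a median of 81.6 CPM per kb in WT cerebellum (range 1.64 to 217) and the 25 without had 163 (31.8 to 713). How the counting treated reads that match several places is not given, so the levels of these 14 genes, among them Cox5b, Cox6c, Atp5k and Atp5g1, are uncertain.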

How the data were processed

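For each library the authors deposited raw read counts by gene, without normalization. The submitters' processing notes name build mm10 and the tools HTSeq 0.6.1p1, STAR, DESeq2 and cutadapt 1.13. For the annotation, the strand setting and multiply mapped reads nothing is given in the sources used here. From these counts, TMM-scaled CPM were computed within each tissue (CPM per kb of principal transcript, used in place of the planned exon length, on the scale of all 14 libraries) and genotypes were compared within each tissue by the robust quasi-likelihood test of edgeR 4.0.16 (R 4.3.3) after filterByExpr (minimum count 10, minimum total 15), with Benjamini-Hochberg adjustment over all genes tested at 0.05. The interaction used all 14 libraries, and WT striatum was compared with WT cerebellum in the 7 WT libraries. SE is the log2 fold change divided by the root of its F statistic. Scripts were tested on simulated counts.

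Lengths, coordinates, overlaps and copies are from GENCODE vM21 (GRCm38); 89.8% of symbols matched by name, 8.23% by a synonym and 1.99% not at all. The principal transcript of a gene gave its length. Values in every library are given for members called, for the smallest p and the highest level per kb of each complex, and for the subunit c genes; Cyc1, Cycs and others were added after their values were seen. The members and lists were chosen with earlier results of these data known. Alternatives were DESeq2's size factors, no filter, DESeq2 1.42.0, limma-voom (limma 3.58.1), a replicate block, length trends removed, 1 model of all libraries, and leaving out each library. Removing the transcript length trend, and 2 settings that combine another with leaving out striatal WT replicate 1, were chosen after the data were seen. No library was left out of the main tests. Precision is set by counting and by 3 or 4 libraries a group. The result of 1 gene outside the members is not reported here.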

Additional observations from a re-analysis of the deposited data

Results flagged for a closer look

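Cycs, the gene of cytochrome c, had 1 WT cerebellar library set apart: replicate 2 was lowest at 15.2 CPM, with the other WT libraries at 17, 16.7 and 16.7 CPM and the cKO libraries at 17.6 to 19.5 CPM. Its distance to the nearest other library, as a share of the range of the group, was above Dixon's 95% critical value for 4 libraries. Of the 78 cerebellar groups of 4 tested over the members, 1 was set apart in this way, while chance gives about 1 in 20. Groups of 3, and so all striatal groups, were not tested.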

How the results depend on the processing

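Over 374 values recomputed under other settings, none changed direction past the threshold, 345 kept direction and side of it, 8 moved and 21 lost significance. In cerebellum the members called higher were 0 with all 14 libraries in 1 model, between 4 and 7 on leaving out each library, and 5, 5 and 8 without the low-count filter, in limma-voom and in DESeq2. Of all 14775 genes limma-voom called 396 higher and DESeq2 438. The cerebellar median of 0.08 became 0.06 with the exon length trend removed. Uqcrh was called in 3 of 17 settings, with adjusted p (of edgeR, DESeq2 or limma-voom, by setting) between 0.0281 and 0.958. It lost its call on leaving out any cerebellar library other than WT replicate 3. The striatal median of 0.35 ran from 0.08 without WT replicate 1 to 0.55 without WT replicate 2, and was 0.11 in limma-voom with quality weights. The WT tissue comparison gave 2 higher calls with the exon length trend removed and 3 with the transcript length trend removed; on leaving out each library, higher calls ran from 0 to 9 and lower calls from 6 to 19. The replicate numbers did not meet the rule for pairing: same-numbered libraries had correlated deviations of 0.05 to 0.12 (striatum) and 0.06 to 0.33 (cerebellum), and not every library correlated best with its own number. With the replicate block the striatal median was 0.44 with 0 members called, and the cerebellar median 0.08 with 6 called. Cox7c, Atp5g2 and Atp5l had few counts, and a change of the size seen in the called members was not detectable for them.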
